A study of Mus musculus with 6 samples.

Results

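The immediate early genes described here were 10 genes: Fos, Fosb, Jun, Junb, Atf3, Egr1, Klf6, Ier2, Ier3 and Zfp36. The list was drawn up with earlier results of these data known, and its members were then found by symbol. Every probe set annotated with exactly 1 of these symbols was taken, which gave 15 of the 34945 probe sets with 1 gene symbol and 10 of the 18193 genes they cover. Klf6 has 5 such probe sets, Jun has 2 and the other 8 genes have 1 each. A gene was represented by its brightest probe set. A total of 9 members passed the filter on low values and were tested among 11341 genes. Fosb, with a mean log2 value of 7.49 against a filter of 7.72, was not, and its values are given without a test.

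Whole mammary glands of 6 female mice were profiled on 1 array each, as 3 pairs, each with 1 Brca1 mutant and 1 control of equal mammary stage. The deposited values are MAS5 signals, a brightness per probe set on a linear scale in arbitrary units, which cannot be compared between probe sets. The study set out to find genes regulated by Brca1, a tumour suppressor involved in DNA repair.

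The virgin pair was a D+/+;p53+/- control and a D11/D11;p53+/- mutant, both 6 months old. The lactating pair carried the same genotypes and was taken at 2 months of age on day 1 of lactation. The pregnant pair, taken at day 16.5 of pregnancy and 5 months of age, was a +/co/MMTV-Cre control and a co/co/MMTV-Cre mutant. Both mice of the virgin and of the lactating pair therefore carried 1 mutant copy of p53, and both mice of the pregnant pair carried MMTV-Cre. In MMTV-Cre the Cre recombinase is driven by the promoter of the mouse mammary tumour virus, which is active in epithelium, so this mutant differs from a D11/D11 mouse, and its label names no p53 allele. The series' design text instead gives D11/D11;p53+/- mutants against p53+/- controls for all 3 pairs, and the sample labels are followed here. All mice had a mixed 129/FVB/Black Swiss background. The names of the lactating arrays bear another date than those of the other 4. Stage, age, that date and, for the pregnant pair, the alleles cannot be told apart.

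Immediate early genes are transcribed within minutes of a stimulus such as a growth factor, stress or mechanical force, without the need for new protein. Fos and Jun proteins pair through leucine zippers into the AP-1 transcription factor, and many of these mRNAs are short-lived because AU-rich elements in them are bound by decay factors such as Zfp36. In the mammary gland, AP-1 genes are best known for their induction when milk stasis starts involution.

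RefSeq promoter windows of the GRCm38.p6 assembly, 250 bases before to 50 after the annotated start, were matched by symbol for 8 of the 10 members; Egr1 and Ier2 had no entry. They were searched on both strands for 5 motifs, and the members' matches did not overlap each other. The core of the cAMP response element, TGACGT, was in 7.51% of all 32851 windows of this length and in those of Fos and Atf3. The Jun-type element TGACATCA was in 3.62% of windows and in those of Jun and Klf6. The CArG box, to which serum response factor binds, was in 1.63% of windows and in that of Zfp36. The TATA motif TATAAA was in 13.6% of windows and in those of Fos and Junb. The AP-1 site TGACTCA, or its reverse complement, was in 5.2% of windows and in no member's window. A match is a description of the letters only. The 150 bases before the start are shown for the 5 members with a match to an element other than TATAAA. Fos and Atf3 share one, Jun and Klf6 share another, and Zfp36 has the CArG box. Whether a motif goes with a ratio of mutant to control was not tested. Matches are in capitals, and each sequence reads 5′ to 3′ on the gene's strand. The windows are chr12:85473740-85473889 on the plus strand for Fos, chr1:191183334-191183483 on the minus strand for Atf3, chr4:95052223-95052372 on the minus strand for Jun, chr13:5861339-5861488 on the plus strand for Klf6 and chr7:28379229-28379378 on the minus strand for Zfp36.
Fos: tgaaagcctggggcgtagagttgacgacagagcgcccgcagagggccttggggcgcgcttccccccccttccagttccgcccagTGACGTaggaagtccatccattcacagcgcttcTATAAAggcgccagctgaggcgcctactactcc
Atf3: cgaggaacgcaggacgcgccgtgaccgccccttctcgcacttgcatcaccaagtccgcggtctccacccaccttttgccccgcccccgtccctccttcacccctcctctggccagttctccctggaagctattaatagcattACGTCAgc
Jun: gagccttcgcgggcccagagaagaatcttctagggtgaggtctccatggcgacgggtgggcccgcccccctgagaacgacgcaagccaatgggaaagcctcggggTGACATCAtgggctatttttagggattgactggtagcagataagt
Klf6: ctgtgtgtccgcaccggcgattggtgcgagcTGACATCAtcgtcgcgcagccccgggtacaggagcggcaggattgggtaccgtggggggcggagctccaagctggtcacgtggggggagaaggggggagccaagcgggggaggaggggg
Zfp36: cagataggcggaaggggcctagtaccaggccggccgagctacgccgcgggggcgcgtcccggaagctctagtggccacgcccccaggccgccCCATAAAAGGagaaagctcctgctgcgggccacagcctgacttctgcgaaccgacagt
The capitals in Fos mark that core and, nearer the start, TATAAA. In Atf3 the core lies next to the start and reads ACGTCA, its reverse complement.

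All arrays had been scaled to a 2%-trimmed mean of 500.0, and their median signals ran from 119.9 to 230.8, highest in the lactating pair. The 3′ to 5′ signal ratio of the actin control, which rises with RNA degradation, stood at 2.74 for the control and 2.03 for the mutant of the virgin stage, against 1.37 to 1.91 for the remaining 4. The same ratio of the Gapdh control stood at 3.50 for the virgin control, 1.52 for the virgin mutant and 0.73 to 1.20 for the remaining 4, so the virgin control stood apart on both. Milk protein and other alveolar markers summed to 65814 to 86578 in the virgin, 126770 to 170649 in the pregnant and 199083 to 222128 in the lactating glands. Skeletal muscle markers summed to 28019 in the virgin control, 9198 in the virgin mutant, 99566 to 107130 in the pregnant and 54361 to 54416 in the lactating glands. The brightest of the 4 probe sets of Brca1 read 137 in virgin control and 486.5 in virgin mutant glands, 158.7 and 288 in the pregnant mice, and 237.6 and 156.7 in the lactating mice. The sources used here do not place these probe sets relative to the deleted part, so they check no label.

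Fos, Ier3, Klf6, Atf3 and Fosb were lower in the mutant than in the control of every pair on the probe set that represents each gene, which for Klf6 did not hold on 2 of its 5. No member was called changed by Brca1 genotype. The lactating pair held the widest gaps, where Ier3, Klf6, Jun and Atf3 were each more than 2-fold lower in the mutant on their brightest probe sets. Across stages the members went in different directions: Egr1 fell from virgin to pregnant to lactating glands, Ier3 rose from virgin to pregnant glands, and Fos and Zfp36 rose from pregnant to lactating glands. Each of these steps lost its call when certain single arrays were left out, as given below. Egr1 in lactating against virgin glands kept its call. Differences are given as log2 ratios of (signal + 52.1), with the standard error (SE) of a limma model over all 6 arrays, and p-values are adjusted over the 11341 genes and called under 0.05. Each mouse is 1 sample, and each stage and genotype holds 1 mouse. The p-values therefore rest on how unevenly the mutant to control ratio ran over the pairs, and on a prior spread taken over all genes. They do not measure the spread between mice of the same stage and genotype. In whole glands, fewer cells of a type and less RNA per cell cannot be told apart.

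**Figure D1:**
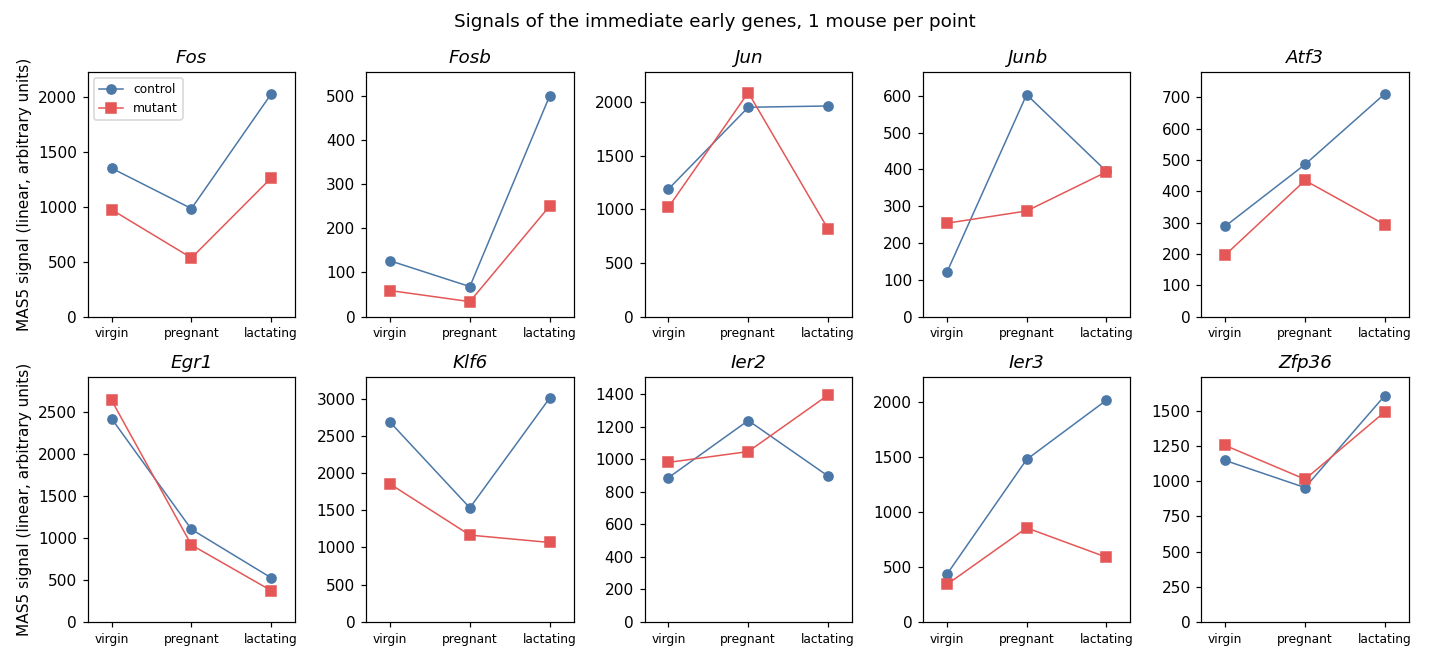
MAS5 signal (linear scale, arbitrary units) of the 10 genes on their brightest probe set against stage, 1 mouse per point, with controls as circles and mutants as squares. Lines join the mice of 1 genotype. The mutant points of Fos, Fosb, Atf3, Klf6 and Ier3 lie below the control point at all 3 stages, and Egr1 runs downward from virgin to lactating glands in both genotypes.

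Fos encodes the AP-1 subunit that gives the family its name. Fos signals were 1349.4 in virgin control and 971.9 in virgin mutant glands, 982.4 and 533.6 in the pregnant mice, and 2025.6 and 1261.3 in the lactating mice. The mutant was lower in each pair, by log2 ratios of -0.45, -0.82 and -0.66, which are close to each other. Over the 3 pairs the log2 ratio was -0.65 ± 0.16, with an adjusted p of 0.932. Between stages Fos rose from pregnant to lactating glands by a log2 ratio of 1.09 ± 0.20 (limma, adjusted p = 0.00899), and the signals of those stages did not overlap. Without the pregnant mutant, which had the lowest Fos signal of all, the ratio was 0.95 and the adjusted p was 0.0791, and after centring each array on its median it was 0.67 (adjusted p = 0.044). Pregnant against virgin glands stood at -0.62 ± 0.20 with an adjusted p of 0.0765.

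Fosb, a close relative of Fos, was dim outside the lactating glands. Its signal was 126.5 in the virgin control, 59 in the virgin mutant, 68 in the pregnant control and 33.9 in the pregnant mutant. It was 500.4 in the lactating control and 250.6 in the lactating mutant. For scale, 20 probe sets of Y-linked genes, which should be dark in these females, reached 33.6 at the median and 483.5 at most. The lactating glands thus held the highest Fosb signals, and the mutant was lower in each pair, by log2 ratios of -0.68, -0.48 and -0.87. With no filter on low values, Fosb was called higher in lactating than in pregnant glands (limma, adjusted p = 0.00973) and higher than in virgin glands (adjusted p = 0.00884). Its virgin and pregnant signals lie in the range of the Y-linked probe sets, so no size is given for either difference.

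Jun encodes the main dimer partner of Fos. Jun signals on the brightest probe set were 1188.9 in virgin control and 1019.7 in virgin mutant glands, 1951.4 and 2088.7 in the pregnant mice, and 1963.4 and 816.7 in the lactating mice. The lactating mutant had the lowest Jun signal of all 6 mice, whereas the lactating control was level with the pregnant glands. The log2 ratios of mutant to control were -0.21, 0.10 and -1.21, so that the lactating control stood 2.32-fold above its mutant. On the other probe set the ratios were -0.22, -0.27 and -0.79, so the probe sets differ in sign in the pregnant pair. Over the 3 pairs Jun stood at -0.44 ± 0.25 (adjusted p = 0.932). Pregnant against virgin glands stood at 0.84 ± 0.31 (adjusted p = 0.11), and signals of those stages did not overlap. On the other probe set the same comparison stood at 0.28 ± 0.24.

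Junb encodes another Jun protein, often a weaker activator. Junb signals were 120.3 in virgin control and 253.7 in virgin mutant glands, 603.2 and 286.9 in the pregnant mice, and 394.8 and 393 in the lactating mice. The sign of the genotype difference turned between pairs, with log2 ratios of 0.83 for the virgin pair, -0.95 for the pregnant pair and -0.01 for the lactating pair. The model estimate was -0.04 ± 0.33. Both virgin signals lay below those of the other stages, yet pregnant against virgin glands stood at 1.04 ± 0.40 (adjusted p = 0.126) and lactating against virgin glands at 0.96 ± 0.40 (adjusted p = 0.0808).

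Atf3 encodes a stress-induced factor that pairs with Jun proteins. Atf3 signals were 288.6 in virgin control and 196.7 in virgin mutant glands, 485.7 and 434.5 in the pregnant mice, and 711.2 and 293.4 in the lactating mice. The lactating control was the highest, and the lactating mutant was level with the virgin control. The log2 ratios of mutant to control were -0.45, -0.14 and -1.14, a 2.21-fold lower value in the lactating mutant. Atf3 was called higher in lactating than in virgin glands, at 0.82 ± 0.29 (limma, adjusted p = 0.0484), although the virgin control and lactating mutant had nearly the same signal. That call was lost under 5 of the 8 other settings at which Atf3 was tested and on leaving out either virgin array or the lactating control, which gave ratios of 0.40 to 0.91. Centring each array on its median gave 0.23 (adjusted p = 0.491).

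Egr1 encodes a zinc-finger transcription factor induced by growth factor signalling. Egr1 signals were 2420.5 in virgin control and 2638.2 in virgin mutant glands, 1102.2 and 915.6 in the pregnant mice, and 524.1 and 371.8 in the lactating mice. The stages did not overlap, and within each stage the pair lay close together. From virgin to pregnant glands Egr1 fell by 1.29 ± 0.22 on the log2 scale (limma, adjusted p = 0.0104). Between pregnant and lactating glands it fell by 1.10 ± 0.22 (adjusted p = 0.0108). Lactating against virgin glands stood at -2.38 ± 0.22, a 5.22-fold lower value (adjusted p = 0.0002602). The latter call held when any 1 array was left out. Egr1 in pregnant against virgin glands lost its call without the virgin mutant (-1.05, adjusted p = 0.0715) or either pregnant array (-1.33 and -1.24). In lactating against pregnant glands it lost its call without either pregnant array (-1.05 and -1.14). The genotype difference was small, at -0.19 ± 0.18, with ratios of 0.12, -0.25 and -0.44 in the virgin, pregnant and lactating pairs.

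Klf6 encodes a Krüppel-like zinc-finger factor that restrains growth in several tissues. Klf6 signals on the brightest probe set were 2685.4 in virgin control and 1853.5 in virgin mutant glands, 1533.2 and 1166.4 in the pregnant mice, and 3008.3 and 1067.5 in the lactating mice. On this probe set the mutant was lower in each pair, by log2 ratios of -0.52, -0.38 and -1.45, and the lactating control exceeded its mutant 2.73-fold. Over the 3 pairs Klf6 stood at -0.78 ± 0.23 (adjusted p = 0.932). With the mean of its probe sets the ratios were -0.24, -0.25 and -0.93, which is under 2-fold in the lactating pair, and the estimate over the pairs was -0.47. No stage difference was called on this probe set.

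The 5 probe sets of Klf6 shared the lower lactating mutant and differed in the other pairs and over the stages. In the lactating pair their log2 ratios of mutant to control ran from -1.45 to -0.63. In the virgin pair they ran from -0.52 to 0.27, with 1427742_a_at above 0, and in the pregnant pair from -0.86 to 0.32, with 1459718_x_at above 0. Probe set 1427742_a_at read 287.9 and 356.7 in virgin glands, control then mutant, 1487.3 and 796.9 in pregnant glands, and 1157.2 and 664.7 in lactating glands. Probe set 1447448_s_at read 1445.6 and 1038.9 in virgin glands, 391.2 and 331.1 in pregnant glands, and 285.9 and 166.6 in lactating glands. Neither set's virgin signals overlapped those of the other stages, and they lay on opposite sides. In a fit over all probe sets, pregnant against virgin glands stood at 1.62 ± 0.30 for the former (adjusted p = 0.0132) and -1.63 ± 0.23 for the latter (adjusted p = 0.00549). The suffix of the latter marks probes that can bind other transcripts. A statement about Klf6 across stages thus depends on the probe set, and the sources used here do not say which transcript forms they read.

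**Figure D2:**
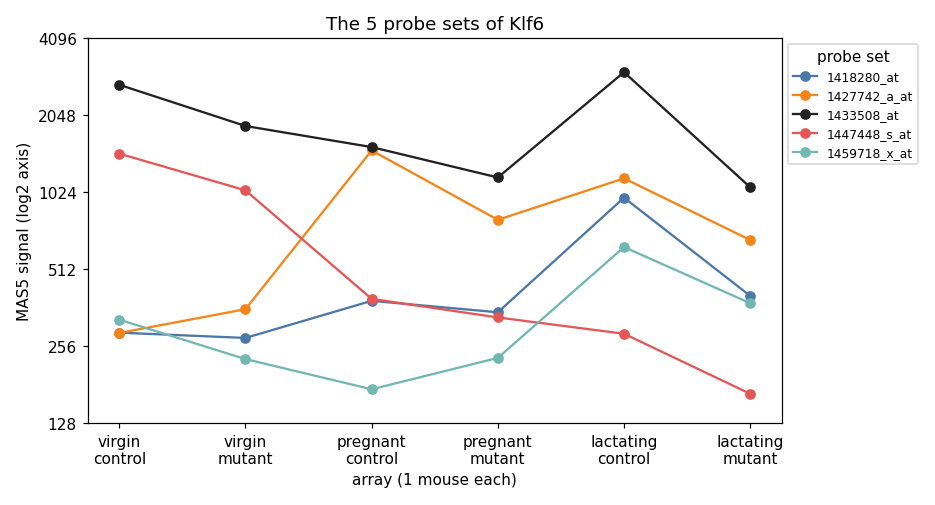
MAS5 signal on a log2 axis of each of the 5 probe sets of Klf6 in the 6 arrays, 1 line per probe set and 1 mouse per array. Every line drops from the lactating control to the lactating mutant, while 1427742_a_at is higher and 1447448_s_at lower in pregnant than in virgin glands.

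Ier2 encodes a small nuclear protein whose function is less well known. Ier2 signals were 887.5 in virgin control and 981.3 in virgin mutant glands, 1239.1 and 1048 in the pregnant mice, and 897.4 and 1395.6 in the lactating mice. It was the only tested member higher in the mutant of the lactating pair, with a log2 ratio of 0.61, against 0.14 in the virgin and -0.23 in the pregnant pair. The estimate over the pairs was 0.17 ± 0.20, and no stage difference was called.

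Ier3 encodes a stress-induced protein linked to cell survival. Ier3 signals were 432.2 in virgin control and 339.9 in virgin mutant glands, 1478.2 and 855.3 in the pregnant mice, and 2018.1 and 588.4 in the lactating mice. Both virgin signals lay below all others, and the control signal was higher at each later stage while that of the mutant was highest in pregnancy. The log2 ratios of mutant to control were -0.31, -0.75 and -1.69, so the lactating control exceeded its mutant 3.23-fold, the widest gap of any member in any pair. Over the 3 pairs Ier3 stood at -0.92 ± 0.26 (adjusted p = 0.932). Ier3 rose from virgin to pregnant glands by 1.44 ± 0.32 (limma, adjusted p = 0.027), and lactating against virgin glands stood at 1.40 ± 0.32 (adjusted p = 0.00893). The former was not called without the virgin control (0.98) or either pregnant array (1.56 and 1.31), nor after quantile normalization (1.34, adjusted p = 0.0626) or with no genotype term (adjusted p = 0.0775). The latter was not called without the virgin control (0.94, adjusted p = 0.0868), and centring on array medians brought it to 0.81.

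Zfp36 encodes tristetraprolin, which binds AU-rich elements and shortens the life of mRNAs, Fos and its own among them. Zfp36 signals were 1147.6 in virgin control and 1254.6 in virgin mutant glands, 954.8 and 1014.1 in the pregnant mice, and 1609.5 and 1493.9 in the lactating mice. Genotypes differed little, with log2 ratios of 0.12, 0.08 and -0.10 and an estimate of 0.03 ± 0.16. The 3 stages did not overlap. Zfp36 rose from pregnant to lactating glands by 0.63 ± 0.19 (limma, adjusted p = 0.041). That call was lost on leaving out any 1 of the 6 arrays (0.53 to 0.73, adjusted p of 0.0509 to 0.223), after centring on array medians (0.22), and with no variance trend (adjusted p = 0.0606).

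For the genotype comparison, 0 of the 9 tested members were called, as was 0% of all 11341 genes (limma). At an unadjusted p under 0.05, 4 members were lower in the mutant, Fos, Ier3, Klf6 and Atf3, against 1.88% of all genes in that direction and 4.71% in either. These 4 and Fosb were lower in all 3 pairs, which makes 4 of the 9 tested members and 5 of all 10, whereas 10.6% of all tested genes were lower in every pair. The count includes Klf6 through its brightest probe set alone, and Fosb, whose pregnant signals lay near the median of the Y-linked probe sets. The median ratio over the 9 members was -0.44, against 0.03 over all tested genes. The lactating pair, in which earlier results of these data had shown a lower median of these genes, is 1 of these 3 pairs. These counts, p-values and medians are therefore no independent support for lower levels in the mutant. The genotype estimates rest in part on the lactating pair: without it, Ier3 stood at -0.53, Klf6 at -0.45, Atf3 at -0.30 and Jun at -0.06, whereas Fos stood at -0.64.

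**Figure D3:**
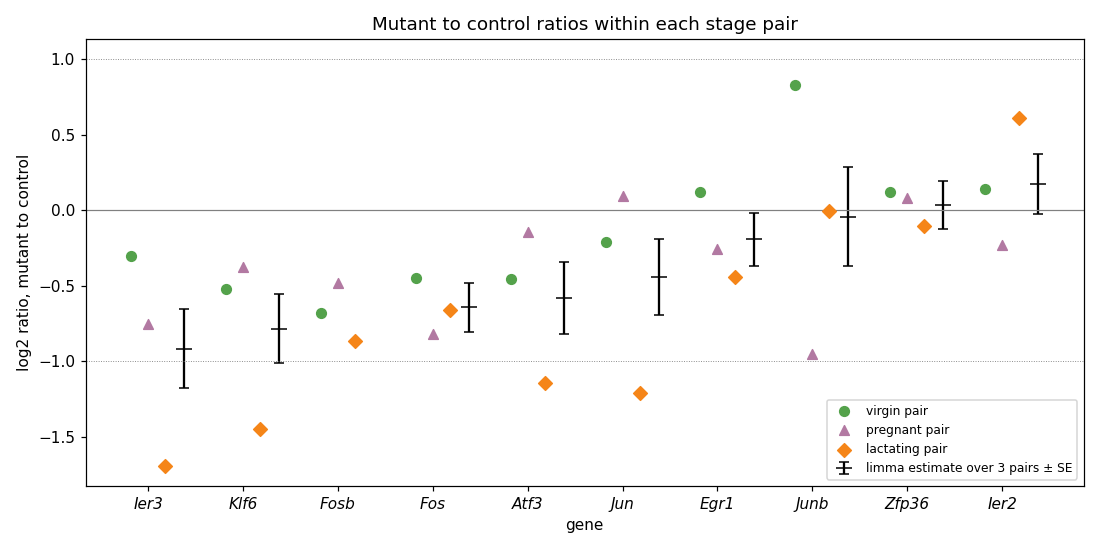
Log2 ratio of mutant to control (vertical axis) of each of the 10 genes, on its brightest probe set, in the virgin, pregnant and lactating pair, with the limma estimate over the 3 pairs ± SE for the 9 tested genes; dotted lines mark a 2-fold difference. Only diamonds, the lactating pair, lie below the lower dotted line, for Ier3, Klf6, Jun and Atf3.

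Within the lactating pair, 4 of the 9 tested members were at least 2-fold lower in the mutant, compared with 2.77% of all tested genes. In the virgin and pregnant pairs 0 members were, against 1.17% and 0.908% of genes. These counts use the brightest probe sets. In the lactating pair the other probe set of Jun stood at -0.79, and the probe sets of Klf6 ran from -1.45 to -0.63. With a pseudocount of 168.7, Atf3 stood at -0.93 in that pair. The members' median log2 ratio was -0.21 for the virgin, -0.25 for the pregnant and -0.66 for the lactating mice, and the medians of all genes were 0.03, 0.02 and 0.04. Each pair is 1 mouse against 1 mouse, so these ratios carry no test of their own. Earlier results of these data had already shown a lower median of these genes in the lactating pair. The counts for this pair, and its interaction below, describe that same pattern and are no independent support for it. The difference between the lactating ratio and the mean of the other 2 was tested as an interaction, which called 0 of 9 members and 0.168% of all genes. It was largest for Ier3 at -1.16 ± 0.36 (adjusted p = 0.305), Jun at -1.16 ± 0.32 (adjusted p = 0.246) and Klf6 at -0.9996 ± 0.31 (adjusted p = 0.299). At an unadjusted p under 0.05 these 3 members passed, as did 10.5% of all genes. For the virgin and the pregnant pair the same test called 0 members and 0% of all genes, and at an unadjusted p under 0.05 it passed 0 members for the virgin pair (3.55% of genes) and 1, Junb, for the pregnant pair (3.33%).

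Marker genes of cell types also differed between the mice of the lactating pair. From control to mutant, the summed signal of 5 fibroblast markers went from 9992 to 14532, of 5 myoepithelial markers from 4592 to 7315 and of 5 macrophage markers from 4503 to 3761. Within the myoepithelial list, Acta2 went from 253 to 136.4 and Trp63 from 416.7 to 372.9, against the direction of the sum. At low signals, 5 T cell markers went from 734.7 to 490 and 4 neutrophil markers from 674.8 to 487.3. Most of the fall in the neutrophil sum lay in Csf3r, from 541.7 to 273.1, while S100a9 (12.4 to 107.4) and Cxcr2 (43.9 to 64.3) rose. Among the T cell markers, Cd3d rose from 20.1 to 35.7. Endothelial markers stood at 2292 and 2241, and the 3′ to 5′ ratio of actin at 1.91 and 1.58. In the virgin pair the muscle markers and the Gapdh ratio differed, as above. The part of these in the members' ratios was not tested.

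Pregnant against virgin glands called 2 of the 9 members, or 22.2%, beside 14.7% of all genes. Ier3 was the 1 called higher, beside 6.61% of genes, and Egr1 the 1 called lower, beside 8.09%. Without the lactating arrays the same comparison called 5 members, with Jun (0.84, adjusted p = 0.0144), Klf6 (-0.72, adjusted p = 0.0235) and Atf3 (0.81, adjusted p = 0.042) in addition. These values are those of the brightest probe sets. No share of all genes is given for the fit without the lactating arrays, so its 5 members cannot be set against the 14.7% above. Over all 6 arrays, the other probe set of Jun stood at 0.28 ± 0.24, and the other probe sets of Klf6 ran from -1.63 to 1.62. Lactating against pregnant glands called 3 members, Fos and Zfp36 higher (14.9% of all genes) and Egr1 lower (17%), beside 31.9% either way. Lactating against virgin glands called 3 members, Ier3 and Atf3 higher (23.8% of all genes) and Egr1 lower (28.2%), beside 52% either way. The members' shares in these last comparisons, 33.3% each, were no higher than the background or near it, and called members went in both directions. The stages also differed in the summed fibroblast markers, at 79387 to 79839 in virgin, 46882 to 53493 in pregnant and 9992 to 14532 in lactating glands, in the milk and muscle markers and in the actin and Gapdh ratios given above. Their part in the stage differences was not tested.

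**Figure D4:**
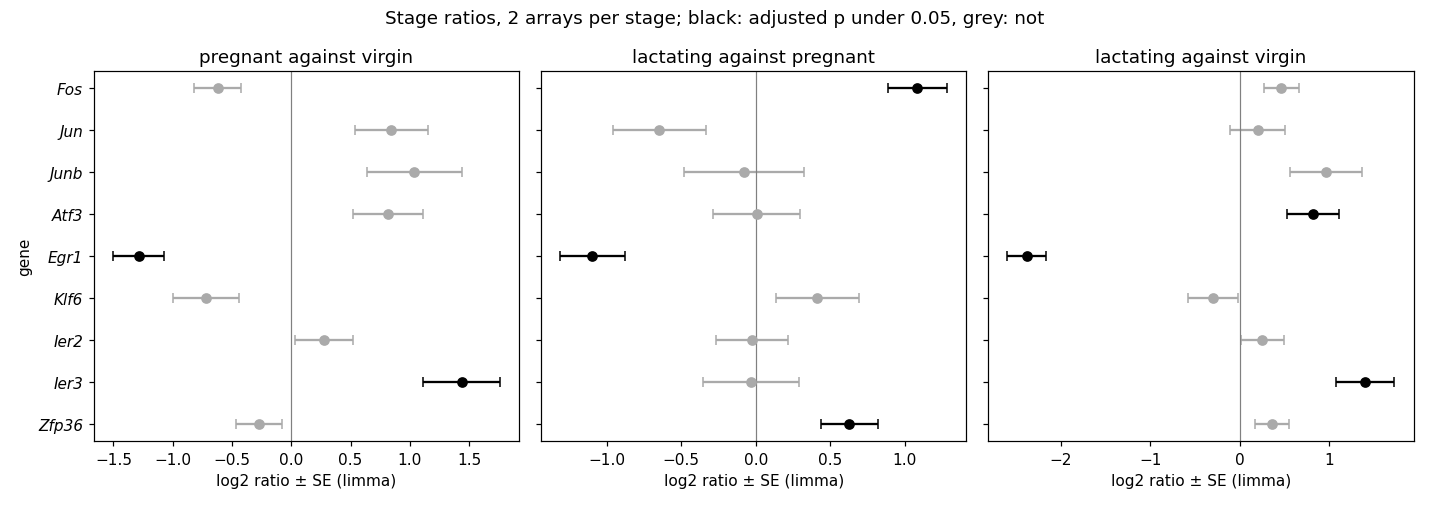
Log2 ratio between stages ± SE (horizontal axis) of the 9 tested members, from the limma model with 2 arrays per stage, in 1 panel per comparison. Black points passed an adjusted p of 0.05 and grey points did not; Egr1 is black and below 0 in all 3 panels, and no other gene is black in all 3.

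Other genes of the same response were examined by lists, which were also chosen with earlier results of these data known. Their counts and interactions for the lactating pair are therefore no independent support for the pattern of the members. Of 18 tested further immediate early transcription factors, 4 were at least 2-fold lower in the lactating mutant, beside 2.77% of all genes, with a list median of -0.36. Egr3 was over 2-fold higher, beside 3.62% of all genes, at dim signals of 11.2 and 120.1. Csrnp1 read 557.8 in the lactating control and 114.5 in its mutant, and Myc, the growth-promoting factor, 1190.3 and 362.8. In Csrnp1 the pregnant pair went the other way, from 47 in the control to 265.6 in the mutant. Klf10 and Per1 were the other members of the list past 2-fold, at -1.12 and -1.21. Over the 3 pairs 0 of the 18 were called by genotype, and Klf10 at -0.68 ± 0.20 and Bhlhe40 at -0.51 ± 0.16 had the smallest p-values.

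Between stages, Jund, the Jun relative that is usually present without a stimulus, had the smallest p-values of the list in both comparisons with lactating glands. Its signal was 1574.5 and 1599.8 in virgin, 3101.7 and 2905.5 in pregnant, and 18528.4 and 12920.9 in lactating glands, control then mutant. It rose at each step, by 0.90 ± 0.21 (adjusted p = 0.0282) and 2.35 ± 0.21 (adjusted p = 0.0013), and stages did not overlap. Egr3, a relative of Egr1, read 1011.1 and 640.5 in virgin, 182.1 and 249.9 in pregnant, and 11.2 and 120.1 in lactating glands, in the same order. It was called lower in pregnant and in lactating than in virgin glands (limma, adjusted p = 0.048 and 0.00156), but its pregnant and lactating signals lie in the range of the Y-linked probe sets, so no size is given for either difference. Of the list, 1 gene was called higher and 5 lower in pregnant than in virgin glands, among them Klf2 at -1.42 ± 0.22 and Klf10 at -1.28 ± 0.24. In lactating against pregnant glands 1 was called higher and 1 lower, and in lactating against virgin glands 5 higher and 8 lower. The list's shares called were 33.3%, 11.1% and 72.2% in these 3 comparisons, beside 14.7%, 31.9% and 52% of all genes.

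Of 30 tested further early products, which include matrix proteins, kinases, phosphatases and signalling inhibitors, 10 were at least 2-fold lower in the lactating mutant, beside 2.77% of all genes. A negative ratio was found for 26 of them, with a median of -0.56, and for 5278 of all 11341 genes. Sgk1, a kinase induced by serum and glucocorticoids, read 5558 in the lactating control and 661.2 in its mutant, after 4671.1 and 4972.3 in the virgin mice and 2468.7 and 3749 in the pregnant mice. Ccn2, a matrix-associated growth factor, read 3619.9 and 337.1 in the lactating mice, 1306.6 and 1229.2 in the virgin mice and 729.5 and 473.6 in the pregnant mice. For both, the gap lay in the lactating pair, where they stood at log2 ratios of -2.98 and -3.24.

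The interaction for the lactating pair was called lower in these 2 of the 30 products, at -3.32 ± 0.34 for Sgk1 (limma, adjusted p = 0.0209) and -2.91 ± 0.36 for Ccn2 (adjusted p = 0.0335), and in 7 of all genes in that direction. Its p-values rest on how far the virgin and pregnant ratios differed from each other and on the prior spread. They do not measure the spread among lactating mice, of which there was 1 per genotype. Socs3, an inhibitor of cytokine signalling, went from 1916.3 in the lactating control to 173.2 in its mutant, a log2 ratio of -3.13. Gadd45g, Dusp1, Plk2, Dusp4, Nfkbiz, Rhob and Ccn1 were the others past 2-fold, between -1.59 and -1.08, and Phlda1 was 2-fold higher. The virgin pair held 0 products past 2-fold in either direction. The pregnant pair held 1, Dusp5, lower in the mutant at dim signals of 201.5 and 49.6, beside 0.908% of all genes. By genotype over the 3 pairs 0 of 30 were called, and 4 had an unadjusted p under 0.05, beside 4.71% of all genes (limma).

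**Figure D5:**
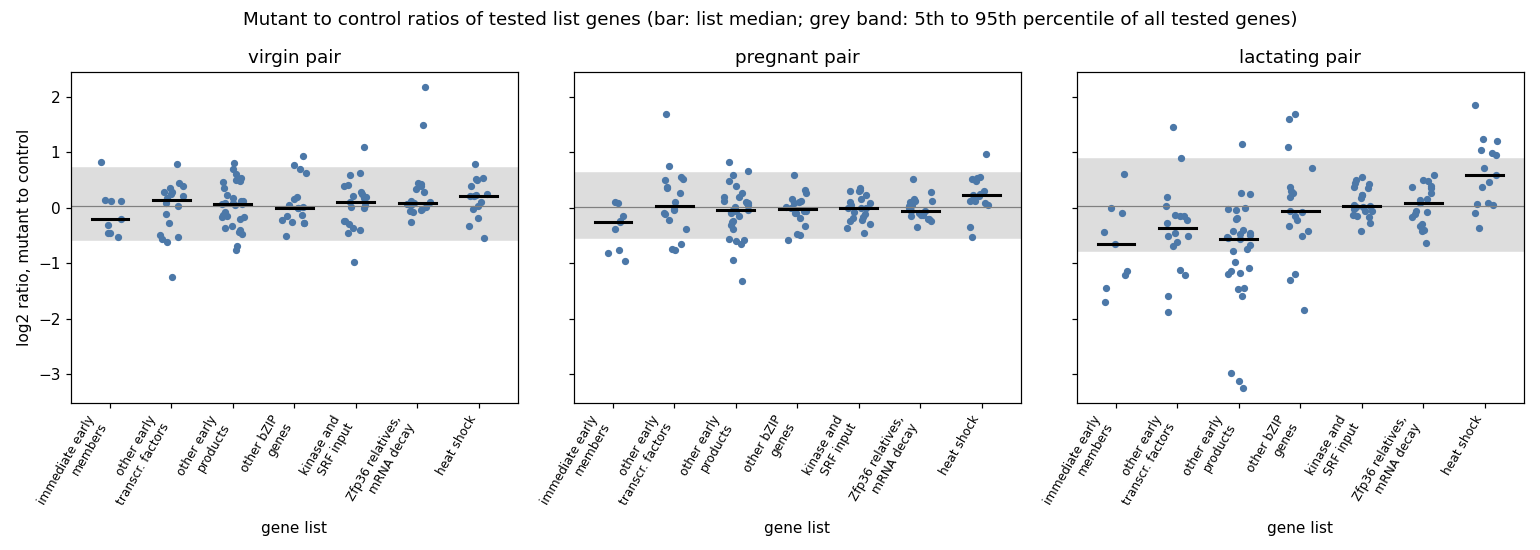
Log2 ratio of mutant to control (vertical axis) of every tested gene in the members and 6 other lists, 1 panel per pair and 1 dot per gene, with list medians as bars and the range from the 5th to the 95th percentile of all tested genes in grey. In the lactating panel the medians of the members, the further early transcription factors and the further early products lie at -0.66, -0.36 and -0.56, and that of the heat shock genes at 0.58.

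Between stages the products split in direction. Pregnant against virgin glands called 3 lower and 0 higher, Errfi1, Dusp6 and Rgs2, at -1.38 ± 0.21, -1.32 ± 0.21 and -1.43 ± 0.33. Errfi1 and Dusp6 dampen growth factor signalling, the former at the receptor and the latter at the ERK kinase. Lactating against pregnant glands called 4 higher, among them Dusp5 and Sik1 (1.32 ± 0.28), and 6 lower, with Phlda1 at -1.53 ± 0.26. The pregnant signals of Dusp5, 201.5 in the control and 49.6 in the mutant, lie in the range of the Y-linked probe sets (median 33.6). No size is therefore given for Dusp5. Lactating against virgin glands called 3 higher and 11 lower. The shares called, 10%, 33.3% and 46.7%, were below or near those of all genes, 14.7%, 31.9% and 52%.

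Lists of genes that act before and beside the members were examined in the same way. Of 21 tested kinases and serum response factor genes, 0 were 2-fold lower or higher in the lactating pair (median 0.03), and of 19 tested Zfp36 relatives and mRNA decay genes 0 were either (median 0.08). Of 18 tested genes of other leucine-zipper (bZIP) factors, 3 were 2-fold lower, Ddit3, Cebpd and Crem, beside 2.77% of all genes. A further 3 were 2-fold higher, Atf5, Cebpb and Bach2, beside 3.62% of all genes. Cebpb, a factor needed for alveolar development, read 4275.4 in the lactating control and 13101.7 in its mutant. Genotype called 0 genes in each of these lists. In pregnant against virgin glands, Xbp1, a factor of secretory cells, was the 1 bZIP gene called, at 1.88 ± 0.30. Of the kinase list 0 were called higher and 4 lower, and of the decay list 3 higher and 1 lower. In lactating against pregnant glands these 3 lists had 3 called higher and 0 lower, 1 and 2, and 3 and 0, in the order bZIP, kinase and decay. In lactating against virgin glands they had 6 higher and 4 lower, 4 and 8, and 4 and 5. In the order of the stage comparisons, the shares called were 5.56%, 16.7% and 55.6% of the bZIP list, 19%, 14.3% and 57.1% of the kinase list and 21.1%, 15.8% and 47.4% of the decay list, beside 14.7%, 31.9% and 52% of all genes.

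Heat shock genes, another group that responds to stress, had mostly positive ratios of mutant to control in every pair. Of 15 tested, 0 were called by genotype and 4 had an unadjusted p under 0.05, beside 4.71% of all genes (limma). Positive ratios were found for 11 of them in virgin, 13 in pregnant and 13 in lactating mice, with medians of 0.21, 0.23 and 0.58. Of all 11341 genes, 6086, 5927 and 6063 had positive ratios in these pairs. In the lactating pair 4 were at least 2-fold higher, as were 3.62% of all genes, and in the other pairs 0 were. Hspa1b, an inducible chaperone, read 2640.5 and 3793.6 in the virgin, 2962.3 and 4312.7 in the pregnant, and 1395.8 and 5164.7 in the lactating pair, control then mutant. Hsph1 read 1417 and 2476.1, 1067.5 and 2125.6, and 491.1 and 1196.2. Both were higher in the mutant of every pair, at 0.97 ± 0.27 and 0.98 ± 0.16 over the 3 pairs (adjusted p = 0.932 for each). Pregnant against virgin glands called 0 of the 15, with 0 at an unadjusted p under 0.05. Lactating against pregnant glands called 1 higher and 8 lower, and lactating against virgin glands 0 higher and 8 lower, which makes 60% and 53.3% of the list beside 31.9% and 52% of all genes.

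Among themselves the members followed more than 1 profile over the 6 arrays. As a description over 6 points that share their stage and pair, Ier3 and Atf3 were most alike (Pearson r = 0.97), followed by Fos and Fosb (0.90) and by Fosb and Zfp36 (0.87). Ier2 and Klf6 ran opposite (-0.83), and Fos and Jun, the classic partners, were nearly unrelated (-0.21). Averaged over the 9 tested members after each was scaled to mean 0 and SD 1, the lactating control stood highest, at 0.70, and the pregnant control next, at 0.31. The other 4 arrays lay between -0.33 and -0.17. The tested genes with the profile most like that of Fos were Nfrkb (r = 0.98), Clk3, Depdc7, Zbtb8a and Abhd1, and 17 genes had an r over 0.95. Those most like the members' average were Pex11g (0.97), Farp1, 2410022M11Rik, Arg2 and Pyroxd2. Arg2 read 834.3 and 906.6 in the virgin, 2435.3 and 1454.8 in the pregnant, and 5305.2 and 1207.1 in the lactating pair.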

How the data were processed

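Whole mammary glands of 6 mice were measured, 1 per array. The deposited values are signal intensities on a linear scale, 1 per probe set. MAS5 is the tool named in the submitters' processing notes, and its version, scanner steps and detection calls are not given in the sources used here. Arrays were kept at their deposited scaling, and intensities were turned into log2(signal + 52.1), the 25th percentile of all values. Each gene took its brightest probe set with 1 symbol, with probe sets prone to cross-hybridisation used only where there was no other. Of 45101 probe sets, 64 were controls, 932 carried several symbols and 9160 had none here. Genes with a mean log2 under the median of probe sets, 7.72, were not tested.

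limma 3.58.1 (R 4.3.3) was fitted over all 6 arrays with stage and genotype as terms and a variance trend, with 2 residual and 5.54 prior degrees of freedom (1 residual in the interactions). Pairs rest on the stage in the labels, and deviations from the genotype means correlated within them (r of 0.858, 0.582 and 0.82 over genes in the virgin, pregnant and lactating pair). Adjusted p-values are Benjamini-Hochberg values over all tested genes. Ratios within a pair carry no test. The code was tested on simulated data. The number of arrays limits the precision.

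The members and lists were chosen with earlier results of these data known. Every member is named. Of each list, up to 4 genes with the smallest p per comparison and all that passed were to be named, with some left out for brevity, and genes past 2-fold within a pair were named after their values were seen. Likeness was ranked by Pearson r with Fos and with the members' mean. The alternatives were other scalings, pseudocounts of 14.9 and 168.7, no filter or the 75th percentile, the mean of probe sets, no trend, fits without the stage block or the genotype term, and omission of each pair, each array or both lactating arrays. Figures were drawn with matplotlib 3.10.9. Expression of Trp53 is not analysed here.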

Additional observations from a re-analysis of the deposited data

Results flagged for a closer look

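Jun and Junb had mutant to control ratios of opposite sign in different stages. For Jun the log2 ratio was -1.21 for the lactating mice and 0.10 for the pregnant mice, a difference of -1.31, and on its other probe set both were negative. For Junb it was -0.95 for the pregnant mice and 0.83 for the virgin mice, a difference of -1.78. These differences between 2 pairs, with 1 mouse on each side, were not tested themselves. The tested differences of 1 pair from the mean of the other 2 were -1.16 ± 0.32 for Jun in the lactating pair (limma, adjusted p = 0.246) and -1.36 ± 0.55 for Junb in the pregnant pair, with an adjusted p near 1.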

How the results depend on the processing

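Under all alternatives run, genotype and the 3 interactions called 0 members, and 3 or 4 members were at least 2-fold lower in the lactating mutant. Of the recomputed member values, 646 kept their direction and side of the threshold, 28 lost a call, 21 gained one and 29 turned sign; none of these 29 was called by either setting. In pregnant against virgin glands 2 members were called, 1 after quantile normalization, 1 with no genotype term, 5 without the lactating arrays, and 0 to 5 on leaving out an array, with 0 without the pregnant control. Leaving out an array gave 0 to 3 members in lactating against pregnant glands (0 without the pregnant mutant) and 1 to 4 in lactating against virgin glands (1 without the virgin control). Of all genes, 1127 of 11353 were called in pregnant against virgin glands after quantile normalization, beside 1667 of 11341 in the main fit. For fits that left out arrays or the genotype term, no share of all genes is given beside the counts of members. In the pregnant pair, 1 member, Junb, was 2-fold lower after centring on array medians and with a pseudocount of 14.9. Centring also shifted the median of all genes from -0.06 to -0.23 in pregnant against virgin, from -0.04 to -0.45 in lactating against pregnant and from -0.10 to -0.68 in lactating against virgin glands. The share of calls that were higher then went from 45% to 27.8%, from 46.8% to 16.7% and from 45.8% to 18.8%. After centring, lactating against virgin glands turned to -0.13 for Fos, -0.34 for Ier2, -0.39 for Jun and -0.23 for Zfp36, lactating against pregnant glands to -0.41 for Atf3, and genotype to -0.0052 for Zfp36. The lactating interaction turned to 0.19 for Fos and 0.0072 for Zfp36, and the virgin interaction to -0.040 for Zfp36. After quantile normalization lactating against pregnant glands turned to -0.14 for Atf3, 0.019 for Ier2 and 0.022 for Ier3, and with a pseudocount of 14.9 to -0.0036 for Atf3. The mean of all probe sets turned Klf6 in lactating against virgin glands to 0.11. Leaving out a pair gave genotype ranges of -0.047 to 0.37 for Ier2, -0.48 to 0.41 for Junb and -0.011 to 0.10 for Zfp36. Leaving out an array gave -0.42 to 0.43 for Atf3, -0.35 to 0.30 for Ier2, -0.61 to 0.55 for Ier3, -0.76 to 0.60 for Junb and -0.086 to 0.91 for Klf6 in lactating against pregnant glands. It gave -0.077 to 0.58 for Ier2, -0.38 to 0.78 for Jun and -0.80 to 0.20 for Klf6 in lactating against virgin glands, and -0.028 to 0.58 for Ier2 in pregnant against virgin glands. The cause of these changes was not tested. No paired analysis beyond the stage block was possible because each stage and genotype holds 1 mouse. Signals near those of Y-linked probe sets, such as Fosb in pregnant glands, are limited by background.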
